A study of Mus musculus with 6 samples.

Results

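Cytochrome P450 families 1, 2 and 3 were followed in sorted mouse hepatocytes with and without a miR-206 transgene. The members are the genes whose symbol is Cyp, a family number from 1 to 3, a subfamily letter and a final number. Pseudogenes, of which the table holds 12 by this name, were left out. The rule gave 58 of the 49315 genes in the table, with 2 in subfamily 1a, 4 in 2a, 5 in 2b, 15 in 2c, 8 in 2d, 1 each in 2e and 2f, 7 in 3a and 15 in other subfamilies. All but Cyp2w1 had enough counts to be tested, which leaves 57. Another 3 P450 symbols with an extra letter, among them the copies Cyp3a41a and Cyp3a41b, fall outside the rule.

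Microsomal P450 enzymes are haem proteins that insert an oxygen atom into drugs, steroids, fatty acids and bile acids. They take electrons from the reductase Por and, for some reactions, from cytochrome b5. The hepatocyte is their main site, and their genes are zoned along the lobule. Cyp2e1 and Cyp1a2 are known from cells around the central vein, and Cyp2f2 is a standard marker of cells around the portal vein. Many also differ by sex under growth hormone, with Cyp2d9 known as a male-type gene and Cyp2b9, Cyp2b13, Cyp3a16 and Cyp3a44 as female-type genes. This is not a full list, and a pattern by sex was not tested.

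The cells came from 3 male C57BL/6J mice, 8 weeks old. By the design text they received by hydrodynamic injection a transposon plasmid (20 µg) carrying miR-206 and GFP under the hepatocyte promoter TTR, together with 0.8 µg of the Sleeping Beauty plasmid that inserts it. Hepatocytes were perfused out 4 weeks later and sorted. The 3 control libraries hold GFP-negative cells and the 3 miR-206 libraries GFP-positive cells, so that plasmid uptake, GFP and the sort differ between the groups along with miR-206. The labels give the controls as wild-type with an empty vector, and the other group as miR-206 overexpression treated with miR-206. The design text names no empty vector, and which of them holds for the controls is not settled here. The libraries are labelled 1 to 3 in each group without a statement that a number marks a mouse.

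Total counts ran from 4157947 to 15244017 per library, with all 3 miR-206 totals below the lowest control. Mitochondrial genes took 9.16% to 36.0% of counts in controls and 11.2% to 63.8% in miR-206 libraries. Genes for odorant and pheromone receptors, which hepatocytes are not known to express, gave 1.22 to 2.92 counts per exonic kb in controls and 3.56 to 5.27 in miR-206 libraries; this density is called the background below. Among 20 hepatocyte markers such as Alb and Ttr, 11 fell and 0 rose, with summed levels of 94152 to 228350 CPM (the usual depth-normalised count, after TMM scaling) in controls and 27743 to 76299 in miR-206 libraries. All 10 Kupffer and 8 sinusoidal endothelial markers, 4 of 5 cholangiocyte, 3 of 7 stellate and 3 of 5 lymphocyte markers also fell, 1 lymphocyte marker rose, and the others did not pass, with no marker of these lists at 0 in all miR-206 libraries. Of all genes tested 29.6% fell and 25.8% rose, and of those at 10 CPM or more in controls 73.6% fell and 2.04% rose. The Kupffer sum was 345 to 1558 CPM in controls and 43.5 to 55.8 in miR-206 libraries, and the endothelial sum 389 to 478 against 101 to 111. The part of these shifts in the P450 results was not tested. In such bulk libraries fewer cells of a type and less RNA per cell cannot be told apart.

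The seed of miR-206, bases 2 to 8 of its mature strand, is shown first because it sets which P450 transcripts carry a matching site. The sequence is from RefSeq (GRCm38.p6, chr1:20679055-20679076, plus strand), with the seed in capitals.
mmu-miR-206-3p: uGGAAUGUaaggaagugugugg
The matching letters ACATTCC were sought in the longest 3' UTR among the basic transcripts of GENCODE M21, its set of representative transcripts. They occur in 1 of the 54 members that have one (1.85%), against 10.9% of the tested genes with one. The member UTRs are shorter, with a median of 335 bases against 1104. The match, in Cyp2b19, lies at chr7:26772416-26772422 (GRCm38, plus strand) and is shown in capitals with 8 bases on each side.
Cyp2b19: attctcccACATTCCcctgtaag
Over all annotated transcripts 3 members hold the letters, the others being Cyp2d12 and Cyp2c70. In both of these the match lies inside the gene, in a transcript annotated for nonsense-mediated decay, and gene-level counts do not separate that transcript. A match is a description of letters and not of binding.

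With the counts as deposited, 30 of the 57 tested members fell and 5 rose in miR-206 cells (edgeR, Benjamini-Hochberg adjusted p under 0.05 over all genes). Of all 24382 genes tested, 29.6% fell and 25.8% rose, and the median log2 fold change was 0.45 over all genes and -1.51 over the members. Of the 33 members at 10 CPM or more in controls 30 fell and 0 rose, where 73.6% of all genes at that level fell and 2.04% rose. Of the 24 tested members below 10 CPM 0 fell and 5 rose, where 6.24% of all such genes fell and 38.4% rose. The split uses the control level, which also enters the fold. For 27 tested members all miR-206 libraries lay below all controls, an order found for 30.3% of all genes. For 9 they lay above all controls, against 36.7% of all genes. The members that fell had control means from 11.4 to 3500 CPM, and those that rose had control means from 0.774 to 1.48 CPM.

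**Figure D1:**
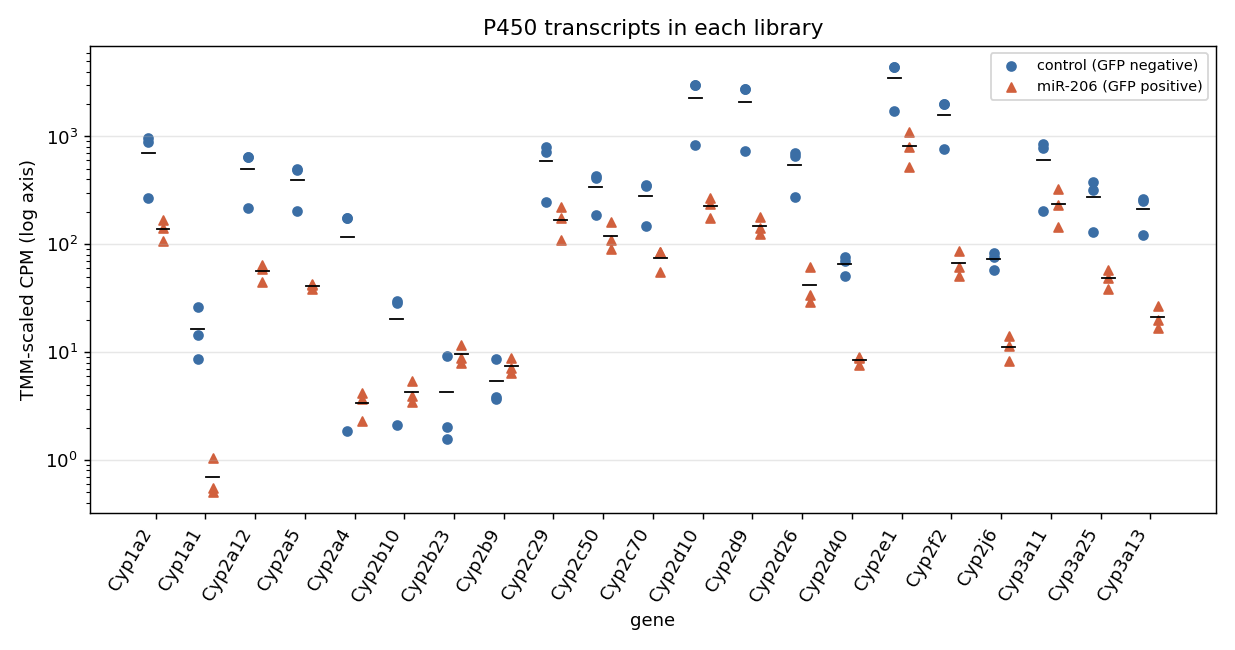
Level of the 21 P450 genes named by rule, in TMM-scaled CPM on a log axis, in each control (blue circles) and miR-206 library (orange triangles), with a bar at each group mean. Cyp2f2, Cyp2d9 and Cyp2e1 are lower in all 3 miR-206 libraries, whereas Cyp2b23, Cyp2b9, Cyp2b10, Cyp2a4 and Cyp3a11 overlap between the groups.

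How far the members fell depends on the scale between libraries, so the genes named by rule are given with their values from 2 other treatments where they entered them. One scales the libraries on the mean log count of the 20 hepatocyte markers and asks for change against these markers. They did not move alike, since 11 fell and the others did not pass. Cps1 had 3838 to 28476 counts in controls and 208 to 425 in miR-206 libraries, and Fgb 31821 to 61613 and 14451 to 48522. On that scale 13 members fell and 19 rose, where 4.50% of all genes fell and 54.4% rose around a median of 2.27. The other subtracts the background by exonic length and keeps nuclear protein-coding genes that average at least 10 times the background over the 6 libraries, so that a gene can pass through its controls alone. In that corrected fit 35 members remained, of which 5 fell and 8 rose, where 21.0% of 6668 genes fell and 18.4% rose around a median of -0.24. One of the 5, Cyp1a1, lay below the background in miR-206 cells, so that the subtraction itself set its call. The other 4 were Cyp2d9, Cyp2d26, Cyp2f2 and Cyp3a13, which fell with the counts as deposited and on the hepatocyte scale too. The 8 were Cyp2b9, Cyp2c50, Cyp2c67, Cyp2c68, Cyp2c70, Cyp2j9, Cyp3a11 and Cyp3a59, of which the 4 Cyp2c genes had fallen with the counts as deposited. Cyp2d9, Cyp2d26, Cyp2f2 and Cyp3a13 fell in all 16 fits made. In the 15 fits without background subtraction 12 members fell each time, the other 8 being Cyp1a1, Cyp2a5, Cyp2a12, Cyp2c23, Cyp2d10, Cyp2d22, Cyp2j5 and Cyp2s1. No member rose in every fit it entered.

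**Figure D2:**
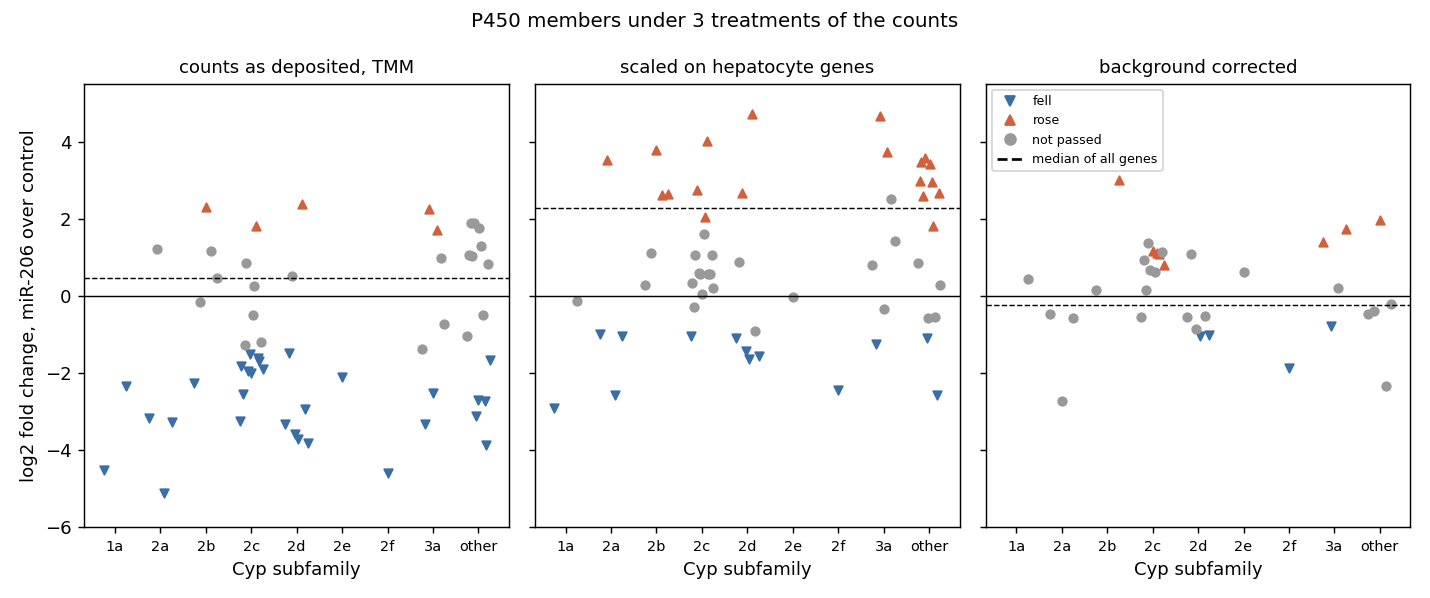
Log2 fold change of miR-206 over control for each tested P450 member by subfamily, with the counts as deposited, scaled on hepatocyte markers, and background corrected. Blue triangles fell, orange triangles rose and grey circles did not pass at an adjusted p of 0.05; the dashed line is the median of all genes (0.45, 2.27 and -0.24), and the corrected Cyp1a1 value, which rests on counts at background, lies outside the axis. The Cyp2f2 point stays below the zero line in all 3 panels and most Cyp2c points cross it.

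The share of a library taken by all members together depends on the other RNA counted in it. As a share of nuclear counts all members together stood at 0.921% in control 1 (95% interval by Wilson's method, 0.914 to 0.929), 1.44% in control 2 (1.43 to 1.44) and 1.41% in control 3 (1.41 to 1.42). They stood at 0.711% (0.703 to 0.720), 0.591% (0.580 to 0.602) and 0.683% (0.673 to 0.692) in miR-206 libraries 1, 2 and 3, so that the groups did not overlap. As a share of total counts, mitochondrial genes included, they did, with 0.590% in control 1 and 0.631% in miR-206 library 1. A measure free of scale between libraries is the make-up of the P450 counts themselves. Within those counts the Cyp2f2 share was 10.99%, 9.77% and 9.97% in controls and 2.64%, 2.66% and 2.36% in miR-206 libraries. The Cyp2d share was 29.1%, 34.5% and 35.3% in controls and 17.7%, 19.4% and 18.3% in miR-206 libraries. Cyp2a took 6.34% ± 0.259 and 4.38% ± 0.966 (SD, n = 3 each). These 3 subfamilies held a smaller part of the P450 counts in all miR-206 libraries than in any control.

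Cyp2c, Cyp2e and Cyp3a held a larger part in every miR-206 library. The Cyp2c share was 13.3%, 12.995% and 12.4% in controls and 20.8%, 22.9% and 22.1% in miR-206 libraries. Cyp2e1 took 24.6%, 21.3% and 21.8% against 33.3%, 27.0% and 30.7%. Cyp3a took 6.70%, 7.26% and 6.82% against 12.99%, 11.4% and 12.2%, and Cyp1a 4.45% ± 0.271 against 5.39% ± 0.282. Control 1 differed from the other controls in its Cyp2d share and in the other subfamilies, at 4.68% against 2.84% and 2.56%, but lay on their side of all miR-206 libraries in the 7 main subfamilies named here. The background would account for 0.0996% to 0.803% of the P450 counts in controls and 2.92% to 4.91% in miR-206 libraries. Subtracting it left the mean shares of these subfamilies within 1 SD, at 2.59% for Cyp2f2, 18.6% for Cyp2d, 21.9% for Cyp2c and 31.4% for Cyp2e1 in miR-206 libraries. Cyp2b, a small subfamily, went from 1.07% to 0.804%.

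**Figure D3:**
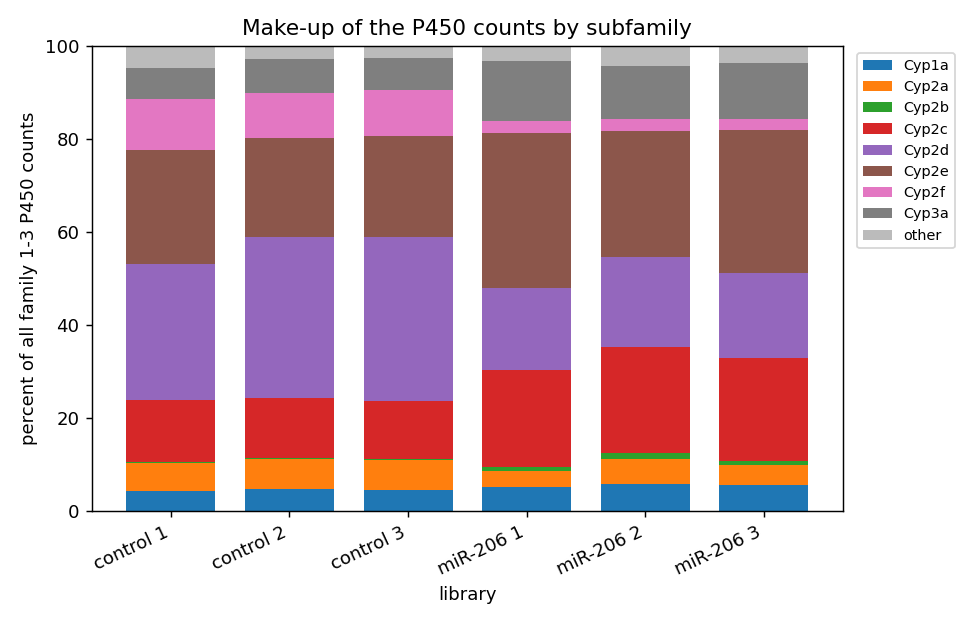
Share of all family 1 to 3 P450 counts taken by each subfamily in each library, in percent, with 1 stacked bar per library. Control 1 has less Cyp2d (29.1%) and more of the other subfamilies (4.68%) than controls 2 and 3. In the miR-206 bars Cyp2f shrinks to 2.36% to 2.66% and Cyp2d to 17.7% to 19.4%, while Cyp2c, Cyp2e and Cyp3a widen.

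Ratios between members show the same shifts. Cyp2f2 gave 44.6, 46.0 and 45.8 counts per 100 counts of Cyp2e1 in controls, and 7.92, 9.85 and 7.67 with miR-206. Cyp2d genes gave 219, 266 and 284 counts per 100 counts of Cyp2c genes in controls and 85.1, 84.8 and 82.7 in miR-206 libraries. Cyp2d9 stood at 346 ± 18.4 per 100 counts of Cyp3a11 in controls and 67.7 ± 17.1 in miR-206 libraries (SD, n = 3 each). Neither these nor the ratios of Cyp2f2 to Cyp2c29 and of Por to all P450 counts overlapped between groups. Each of the 5 ratios had p = 0.1 in an exact two-sided permutation test, adjusted p = 0.1, the smallest that 3 against 3 libraries allow.

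Cyp1a enzymes oxidise planar aromatic compounds and are the classical targets of the receptor Ahr. Cyp1a2 (chr9:57676937-57683703), the caffeine-oxidising enzyme, was at 266, 962 and 888 CPM in controls and 169, 108 and 142 CPM in miR-206 libraries. It fell by 2.34 (SE 0.59, edgeR adjusted p = 0.00782), but was at -0.13 on the hepatocyte scale (adjusted p = 0.741) and 0.44 after correction (adjusted p = 0.303). Cyp1a1 (chr9:57687928-57703824), the inducible form, was counted at 198, 139 and 77 in controls and at 4, 3 and 8 in miR-206 libraries. That is 16.4 ± 8.89 against 0.700 ± 0.302 CPM (SD, n = 3 each), a fall of 4.50 (SE 0.55, adjusted p = 0.000320) and of 2.92 on the hepatocyte scale (adjusted p = 0.0176). In miR-206 cells Cyp1a1 was at 0.376 times the background, so no corrected fold is given. Cyp1a2 kept 19.8% of its control mean and Cyp1a1 4.26%. Cyp1b1, an oestrogen-oxidising enzyme mostly expressed outside the liver, was at 4.38 ± 1.56 and 2.11 ± 0.441 CPM (adjusted p = 0.0881).

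Cyp2a genes encode steroid and coumarin hydroxylases, and 3 of 4 fell (29.6% of all genes). Cyp2a12, a steroid hydroxylase, went from 216, 647 and 651 CPM to 64.9, 45.1 and 58.6 CPM, a fall of 3.17 (SE 0.57, adjusted p = 0.00142). Cyp2a5, the coumarin hydroxylase, went from 203, 502 and 486 CPM to 38.3, 43.1 and 41.8 CPM, a fall of 3.27 (SE 0.52, adjusted p = 0.000757). Both fell on the hepatocyte scale too, by 0.98 and 1.05, and were at -0.46 and -0.58 after correction, where neither passed (adjusted p = 0.225 and 0.0951). Cyp2a4, a testosterone hydroxylase close in sequence to Cyp2a5, set control 1 apart. It was counted at 14 there and at 1674 and 1541 in controls 2 and 3, against 18, 20 and 32 in the miR-206 libraries. Its fall of 5.11 (SE 1.20, adjusted p = 0.00566) thus came with an overlap, since control 1 lay below all miR-206 libraries in CPM. Without the filter on low counts its adjusted p was 0.0788, and after correction 0.0918 (at -2.73), and it fell by 2.57 on the hepatocyte scale (adjusted p = 0.0297). Cyp2a22 was at 4.17 ± 2.45 and 9.69 ± 1.59 CPM, higher in every miR-206 library, and did not pass (adjusted p = 0.0530).

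Cyp2b enzymes are the drug-inducible targets of the receptor Nr1i3 (CAR), and were low in these cells. Cyp2b10 was counted at 16, 278 and 262 in controls and at 27, 30 and 30 in miR-206 libraries, so that control 1 again lay below all miR-206 libraries in CPM. It fell by 2.25 (SE 0.73, adjusted p = 0.0249), a call lost when any library but control 1 was left out (adjusted p = 0.0589 to 0.0808), and was at 0.27 on the hepatocyte scale and 0.14 after correction. Cyp2b23 was at 4.28 ± 4.31 and 9.51 ± 2.02 CPM (1.17, SE 0.61, adjusted p = 0.123), and rose by 2.32 without control 1 and by 2.63 on the hepatocyte scale (adjusted p = 0.0274). Cyp2b9, a female-type gene, was at 5.39 ± 2.79 and 7.46 ± 1.16 CPM and did not pass (0.46, adjusted p = 0.364), but rose by 3.00 after correction (adjusted p = 0.00411) and by 2.63 on the hepatocyte scale. It lay at 6.00 times the background in miR-206 cells. Cyp2b13, also female-type, was counted at 48 in control 1, 2 and 3 in the other controls, and 9 to 23 in the miR-206 libraries. Cyp2b19, which carries a seed match, rose by 2.30 (adjusted p = 0.0235) from 0.774 to 3.76 CPM, at 1.35 times the background. Its groups overlapped, with control 1 at 1.45 CPM and miR-206 replicate 2 at 1.27 CPM, the latter at 0.471 times the background. The call held in 11 of the 15 fits that Cyp2b19 entered.

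Cyp2c, the largest subfamily, holds epoxygenases of arachidonic acid and steroid and bile acid hydroxylases. With the counts as deposited 9 of 15 fell and 1 rose (29.6% and 25.8% of all genes), with a median of -1.60. The median was 0.58 on the hepatocyte scale, where 1 fell and 3 rose (4.50% and 54.4% of all genes). It was 0.94 over the 11 genes of the corrected fit, where 4 rose and none fell (18.4% and 21.0% of all genes). Cyp2c29 (chr19:39269405-39330713) was at 248, 801 and 714 CPM in controls and 220, 109 and 174 CPM in miR-206 libraries. It fell by 1.81 (SE 0.57, adjusted p = 0.0221), and was at 0.33 on the hepatocyte scale and 0.94 after correction (adjusted p = 0.0597). Cyp2c50 was at 187, 429 and 409 CPM against 160, 91.3 and 109 CPM and fell by 1.51 (SE 0.50, adjusted p = 0.0261), but rose by 1.17 (SE 0.30, adjusted p = 0.0159) after correction. Both lost their call without control 2, control 3, miR-206 replicate 2 or miR-206 replicate 3, with adjusted p from 0.0588 to 0.0963. In both genes the lowest control was near the highest miR-206 library.

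Cyp2c70, which oxidises bile acids to muricholic acids in mice, was at 148, 344 and 351 CPM in controls and 84.8, 55.7 and 84.8 CPM in miR-206 libraries. It fell by 1.90 (SE 0.49, adjusted p = 0.00906), was at 0.22 on the hepatocyte scale (adjusted p = 0.594), and rose by 0.79 (SE 0.28, adjusted p = 0.0491) after correction. Cyp2c67 and Cyp2c68 rose by 1.10 and 1.08 after correction, having fallen by 1.60 and 1.68. Cyp2c23, an arachidonic acid epoxygenase, is the Cyp2c member that fell on the hepatocyte scale too. It fell by 3.25 (SE 0.58, adjusted p = 0.00134), to 10.5% of its control mean, and by 1.03 on the hepatocyte scale, and was at -0.54 after correction (adjusted p = 0.187). The other members that fell, Cyp2c37, Cyp2c54 and Cyp2c40, kept 17.0%, 24.8% and 26.1% of their control means. Cyp2c40 showed the control 1 pattern, with 20 counts against 362 and 275. The member that rose, Cyp2c66, went from 1.02 to 3.64 CPM at 2.83 times the background.

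Cyp2d genes, which act on basic drugs and steroids, fell in 6 of 8 members with the counts as deposited (29.6% of all genes), with a median of -3.13. These 6 were at 10 CPM or more in controls, where 73.6% of all genes fell. On the hepatocyte scale 4 fell and 2 rose (4.50% and 54.4% of all genes), with a median of -1.01. After correction 2 of 6 fell (21.0% of all genes), with a median of -0.70. Cyp2d10 (chr15:82402846-82407195) was at 826, 3007 and 2985 CPM in controls and 269, 174 and 237 CPM in miR-206 libraries. It fell by 3.32 (SE 0.65, adjusted p = 0.00225) and by 1.10 on the hepatocyte scale, and was at -0.54 after correction (adjusted p = 0.236). Cyp2d9 (chr15:82433437-82456845), the male-type steroid hydroxylase, was at 735, 2741 and 2768 CPM against 180, 125 and 142 CPM. It fell by 3.80 (SE 0.66, adjusted p = 0.00124), by 1.56 on the hepatocyte scale and by 1.02 after correction (adjusted p = 0.0446). Cyp2d26 fell by 3.71 (SE 0.59, adjusted p = 0.000779), from 275, 697 and 664 CPM to 61.9, 29.3 and 34.0 CPM, by 1.63 on the hepatocyte scale and by 1.03 after correction (adjusted p = 0.0383). Cyp2d40 was at 50.7, 76.2 and 69.7 CPM and then 8.85, 7.64 and 9.03 CPM, a fall of 2.94 with a small spread (SE 0.35, adjusted p = 0.000304), and was at -0.92 on the hepatocyte scale (adjusted p = 0.114) and -0.53 after correction (adjusted p = 0.144). Cyp2d22 fell by 3.57 to 8.39% of its control mean and by 1.44 on the hepatocyte scale, and was at -0.87 after correction (adjusted p = 0.172). Cyp2d11 fell by 1.48 (adjusted p = 0.0244) with an overlap, since control 1 was at 6.08 CPM and the miR-206 libraries at 4.71 to 7.64 CPM. Cyp2d12 was at 2.51, 4.77 and 4.76 CPM in controls and 5.31, 5.27 and 6.81 CPM in miR-206 libraries, higher in every miR-206 library. It did not pass (adjusted p = 0.289), but rose by 2.65 on the hepatocyte scale (adjusted p = 0.00645). It lay at 2.25 times the background in miR-206 cells. Cyp2d34, which rose with the counts as deposited, had 3 to 15 counts in controls and 19 to 43 in miR-206 libraries, at 2.70 times the background.

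Cyp2e1 (chr7:140763739-140774987), which oxidises ethanol and paracetamol, was the most abundant member per exonic kb in both groups. It was at 1723, 4386 and 4393 CPM in controls and 1106, 519 and 807 CPM in miR-206 libraries, lower in all of the latter. It fell by 2.11 (SE 0.61, adjusted p = 0.0150). The call was lost without control 2, control 3, miR-206 replicate 2 or miR-206 replicate 3 (adjusted p = 0.0548 to 0.0609). Cyp2e1 was at -0.02 on the hepatocyte scale (adjusted p = 0.942) and 0.61 after correction (SE 0.35, adjusted p = 0.192).

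Cyp2f2 (chr7:27119909-27133660), the periportal enzyme that activates naphthalene, was at 768, 2017 and 2011 CPM in controls and 87.5, 51.1 and 61.9 CPM in miR-206 libraries. Even the lowest control was far above the highest miR-206 library. It fell by 4.58 (SE 0.63, adjusted p = 0.000428), by 2.45 on the hepatocyte scale (adjusted p = 0.00194) and by 1.87 after correction (SE 0.32, adjusted p = 0.00442). It kept 4.18% of its control mean and lay at 49.6 times the background in miR-206 cells, so that its count there was not near the floor.

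Cyp3a enzymes hydroxylate steroids and many drugs, and Cyp3a11 is the main mouse target of the receptor Nr1i2 (PXR). Cyp3a11 (chr5:145854426-145879964) was at 204, 844 and 786 CPM in controls and 326, 144 and 233 CPM in miR-206 libraries, and the groups overlapped through control 1. It did not pass with the counts as deposited (-1.38, SE 0.62, adjusted p = 0.0769) but fell by 1.88 without control 1. It was at 0.79 on the hepatocyte scale (adjusted p = 0.0506) and rose by 1.40 after correction (SE 0.40, adjusted p = 0.0269). Cyp3a25 fell by 2.51 (SE 0.52, adjusted p = 0.00295), from 130, 378 and 319 to 58.1, 38.6 and 48.8 CPM, and was at -0.35 on the hepatocyte scale (adjusted p = 0.401) and 0.20 after correction (adjusted p = 0.563). Cyp3a13, an isoform also found in the intestine, went from 122, 261 and 254 to 26.9, 16.7 and 19.8 CPM. It fell by 3.33 (SE 0.49, adjusted p = 0.000537), by 1.24 on the hepatocyte scale and by 0.77 after correction (adjusted p = 0.0407). Of the female-type genes named above, Cyp3a16 rose by 2.25 (adjusted p = 0.0387) and Cyp3a44 by 1.71 (adjusted p = 0.0118). They reached 3.90 and 4.89 CPM, at 3.39 and 3.74 times the background. Cyp2b9 and Cyp2b13 did not pass, and 38.4% of all genes below 10 CPM in controls rose.

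Among the other subfamilies 5 of 14 tested members fell and 0 rose with the counts as deposited (29.6% and 25.8% of all genes). On the hepatocyte scale 2 fell and 8 rose (4.50% and 54.4% of all genes). After correction 1 of 5 rose and 0 fell (18.4% and 21.0% of all genes). Cyp2j6, an arachidonic acid epoxygenase, went from 58.0, 83.6 and 76.0 to 8.22, 14.2 and 11.4 CPM. It fell by 2.69 (SE 0.38, adjusted p = 0.000439), with -0.56 on the hepatocyte scale (adjusted p = 0.371) and -0.40 after correction (adjusted p = 0.371). Cyp2j5, the most abundant Cyp2j gene, fell by 3.12 to 11.5% of its control mean and by 1.09 on the hepatocyte scale, and was at -0.47 after correction. Cyp2r1, a vitamin D hydroxylase, was counted at 35, 150 and 125 against 17, 8 and 12 and fell by 2.71, to 1.23 times the background, with -0.54 on the hepatocyte scale, where it did not pass. Cyp2u1, a fatty acid hydroxylase, fell by 1.65 to 1.75 times the background, with 0.28 on the hepatocyte scale. Cyp2s1, better known from epithelia than from liver, was counted at 375 in control 1, 92 and 99 in the other controls, and 17, 5 and 12 in miR-206 libraries. It fell by 3.88 (SE 0.69, adjusted p = 0.00140) to below the background (0.469 times). The biliary keratin Krt19 showed the same order among controls, with 1180, 457 and 537 counts, and had 46, 12 and 29 in miR-206 libraries; its part in the Cyp2s1 counts was not tested.

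**Figure D4:**
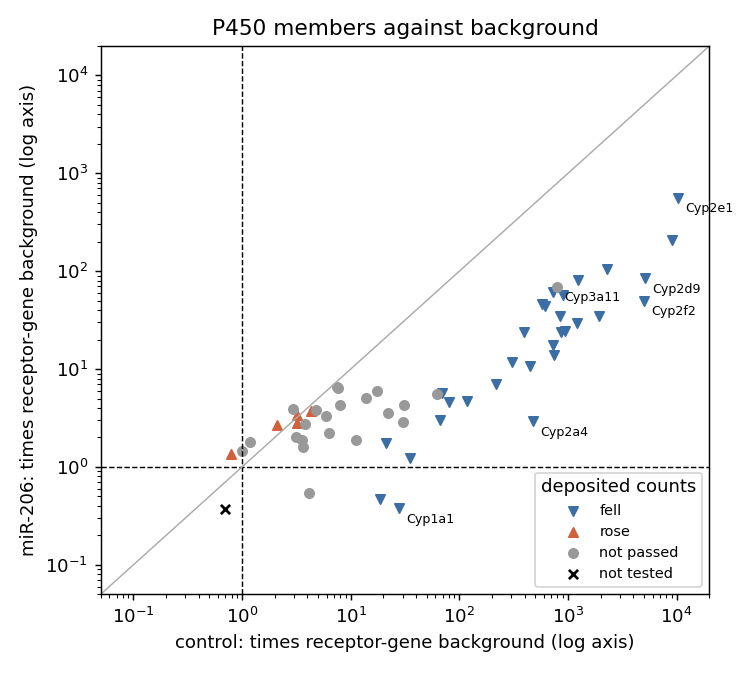
Mean level of each P450 member in controls (x) and miR-206 cells (y), in multiples of the receptor-gene background, both on log axes, with dashed lines at 1 and a grey line of equality. The members that rose (orange) sit at 1.35 to 3.74 times the background in miR-206 cells, whereas Cyp2e1, at 563 times, and Cyp2f2, at 49.6 times, are well above it.

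Per exonic kb, a scale on which different genes can be compared, Cyp2e1 led in controls with 1622 ± 713 CPM per kb, followed by Cyp2d10 with 1379 ± 760. Cyp2f2 (790 ± 355) and Cyp2d9 (783 ± 439) came next, then Cyp1a2 (350 ± 190), Cyp2d26 (304 ± 131) and Cyp2c29 (192 ± 97.1). In controls each step between neighbours in this order was smaller than the SD of the higher gene. That SD is a spread between libraries, with control 1 low for each of these genes, and does not measure the order inside a library. In each of the 3 controls Cyp2e1 lay above Cyp2d10, Cyp2d10 above Cyp2f2, Cyp2d9 above Cyp1a2, and Cyp2d26 above Cyp2c29. Cyp2f2 and Cyp2d9 changed places between controls, as did Cyp1a2 and Cyp2d26. In miR-206 cells Cyp2e1 stood at 376 ± 136 and Cyp2d10 at 138 ± 29.4, followed by Cyp1a2 (69.3 ± 15.1), Cyp2d9 (56.0 ± 10.5), Cyp2c29 (54.7 ± 18.3) and Cyp3a11 (46.0 ± 17.9). There Cyp2e1 and Cyp2d10 each exceeded the next gene by more than either SD, and the later steps were smaller than the SD of the higher gene. Inside each miR-206 library Cyp1a2 lay above Cyp2d9 and Cyp2c29 above Cyp3a11, while Cyp2d9 and Cyp2c29 changed places. Cyp2f2 was ranked 3 in controls and 9 in miR-206 cells (33.0 ± 9.24), Cyp2d26 6 and 12, and Cyp3a11 13 and 6.

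The stretches just upstream of 4 start sites are shown. Cyp2f2 and Cyp2e1 were taken because they moved apart in the ratios above. Cyp1a1 and the male-type Cyp2d9 fell the most in their subfamilies with the counts as deposited. On the hepatocyte scale Cyp2d26 fell more than Cyp2d9 (1.63 against 1.56), as after correction (1.03 against 1.02). The stretches are the 60 bases before each start, positions -60 to -1, plus strand, from RefSeq (GRCm38.p6), with the letters TATAAA on either strand in capitals. In the order given they lie at chr7:140763759-140763818, chr7:27119895-27119954, chr9:57697553-57697612 and chr15:82452317-82452376.
Cyp2e1: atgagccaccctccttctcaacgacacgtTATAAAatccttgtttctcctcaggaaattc
Cyp2f2: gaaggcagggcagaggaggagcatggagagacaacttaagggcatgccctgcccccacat
Cyp1a1: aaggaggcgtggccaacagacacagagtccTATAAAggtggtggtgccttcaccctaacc
Cyp2d9: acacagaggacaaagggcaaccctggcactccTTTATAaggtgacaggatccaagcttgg
A promoter window of 250 bases before to 50 after the start was found for 50 members, with 53 windows. TATAAA on either strand was in 49.1% of these windows and in 13.6% of all 32851 windows, and for 12 members it lay 35 to 22 bases before the start. AGGTCA, the core letters bound by nuclear receptors, was in 35.8% against 16.3%. GCGTG, the core letters bound by Ahr, was in 18.9% against 32.4%. Such matches overlap other motifs and are not sites shown to be bound. The whole Cyp2f2 window holds no TATAAA on either strand.

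The partner and regulator genes of the P450 system fell in 27 of 31 members, and none rose (29.6% and 25.8% of all genes), with a median of -2.85. All but Cux2 were at 10 CPM or more in controls, where 73.6% of all genes fell and 2.04% rose. With hepatocyte scaling 6 partner genes fell and 2 rose (4.50% and 54.4% of all genes). After correction 6 fell and 1 rose of 27 (21.0% and 18.4% of all genes). The 6 were Por, at 13.6 times the background in miR-206 cells, Blvrb (8.60), Urod (5.56), Hnf4a (4.53), Hmox1 (2.67) and Ppox (0.888). All but Por were under 10 times there and passed the filter through their controls. All 5 redox partners fell with the counts as deposited (29.6% of all genes, and 73.6% of those at 10 CPM or more in controls). Por (chr5:135670033-135735326), the reductase that feeds every microsomal P450, was at 240, 1162 and 1138 CPM in controls and 40.2, 32.6 and 36.5 CPM in miR-206 libraries. It fell by 4.54 (SE 0.70, adjusted p = 0.000657), by 2.23 on the hepatocyte scale and by 1.81 after correction (SE 0.37, adjusted p = 0.00828), and in all 16 fits. There were 3.44, 5.63 and 5.64 Por counts per 100 P450 counts in controls and 1.21, 1.70 and 1.39 in miR-206 libraries. Cyb5a, which encodes cytochrome b5, went from 552, 1333 and 1274 to 86.9, 110 and 114 CPM. It fell by 3.34 (SE 0.56, adjusted p = 0.000945) and by 1.11 on the hepatocyte scale, and was at -0.64 after correction (adjusted p = 0.112). Pgrmc1, a haem-binding partner, fell by 2.66 and was at 0.06 after correction.

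Haem synthesis genes fell in 7 of 8 members with the counts as deposited, all but Uros (29.6% of all genes). At 10 CPM or more in controls, where all 8 lay, 73.6% of all genes fell. On the hepatocyte scale 1 of the 8 fell and 1 rose (4.50% and 54.4% of all genes). After correction 2 fell, Ppox among them, and 1 rose (21.0% and 18.4% of all genes). Alas1, the rate-limiting enzyme, was at 264, 601 and 638 CPM in controls and 17.1, 81.7 and 54.5 CPM in miR-206 libraries, and fell by 3.30 (SE 0.67, adjusted p = 0.00271). It was at -0.90 on the hepatocyte scale (adjusted p = 0.193) and -0.66 after correction (adjusted p = 0.370). Urod, a later step of the pathway, fell by 3.40 and by 0.95 after correction (adjusted p = 0.0137). Uros was at 24.3 ± 10.9 and 15.1 ± 1.15 CPM (adjusted p = 0.141), and rose by 1.86 after correction. The haem breakdown genes Hmox1 and Blvrb fell by 3.92 and 3.54, and by 1.84 and 0.94 after correction.

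All 9 receptors and regulators fell with the counts as deposited (29.6% of all genes). At 10 CPM or more in controls, where all 9 lay, 73.6% of all genes fell. On the hepatocyte scale 1 of the 9 fell (4.50% of all genes), and after correction 1 of 8 (21.0% of all genes), Hnf4a in both. Hnf4a, the hepatocyte factor that drives many P450 promoters, went from 82.7, 390 and 387 to 10.1, 16.9 and 16.5 CPM. It fell by 4.30 (SE 0.67, adjusted p = 0.000693), by 1.90 on the hepatocyte scale, which it helps to set as 1 of the 20 markers, and by 1.81 after correction (adjusted p = 0.0126). The drug receptors Nr1i2 and Nr1i3 fell by 2.90 (SE 0.45, adjusted p = 0.000666) and by 2.85 (SE 0.46, adjusted p = 0.000799), to 3.09 and 2.13 times the background. They were at -0.68 and -0.56 on the hepatocyte scale, where neither passed. After correction they were at -0.66 and -0.97 (adjusted p = 0.157 and 0.0750). Ahr fell by 1.34 (SE 0.49, adjusted p = 0.0388), to 1.57 times the background, was at 0.88 on the hepatocyte scale, and lost its call without any one library other than control 1 or miR-206 replicate 3 (adjusted p = 0.0760 to 0.128). Of the growth hormone axis the receptor Ghr fell by 2.03, Stat5b fell by 1.82 and Bcl6 fell by 0.95, none of which fell on the hepatocyte scale or after correction, and Jak2, Stat5a and Cux2 did not pass. Cux2, a female-type repressor, was at 4.66 ± 1.69 and 7.86 ± 0.195 CPM, at 1.17 times the background in miR-206 cells.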

How the data were processed

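The authors deposited whole-number counts per Ensembl gene for 6 libraries, with no normalisation. Per the labels' protocols RNA came from a Qiagen micro kit and the libraries from a SMARTER mRNA kit. The submitters' processing notes name GRCm 38 and mm 10. For the aligner, counter, annotation release and strandedness the entry is: not given in the sources used here. Counts of close P450 paralogs and of overlapping genes are therefore uncertain. Coordinates and exonic lengths are from GENCODE M21 (GRCm38), which matched 49056 of 49315 genes by identifier; 174 genes carry no symbol.

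Genes passing filterByExpr (minimum count 10) were scaled by TMM and tested with the quasi-likelihood F test of edgeR 4.0.16 (robust, group as the single term) in R 4.3.3, with Benjamini-Hochberg adjustment over all 24382 genes. Fold changes are log2, miR-206 over control, and SE is the log2 fold change over the root of F. CPM use the TMM-scaled library size. p-values measure the spread between these libraries. The 15 alternatives were 4 other scalings, no mitochondrial genes, no filter, DESeq2 1.42.0, a replicate block, 6 fits without 1 library, and a background-corrected fit. That fit subtracted receptor counts per exonic kb (1401 Olfr and Vmn genes, 5124 kb) and kept nuclear protein-coding genes averaging at least 10 times the background over the libraries. The edgeR fit was also run on counts simulated from the control means, with a small set of genes moved up or down at random. That simulation held no background and no shift of most genes, so it cannot speak to the choice of scale. Also used were data.table (release 1.17.8), statsmodels 0.14.6, pandas 2.3.3, scipy 1.17.1, numpy 2.4.6 and Python 3.11.15. Without molecular identifiers PCR copies are not separate molecules, so intervals and floors cover counting error only.

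The restriction of the seed search to basic transcripts was chosen after the matches over all transcripts were seen. The members, lists and tests were chosen with earlier results of these data known. The 28 genes named by rule are the up to 3 most abundant tested members of each of 8 subfamilies, the 5 members with the smallest p, and Por, Cyb5a, Alas1, Nr1i2, Nr1i3, Ahr and Hnf4a; any other gene was named after its values were seen.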

Additional observations from a re-analysis of the deposited data

How the results depend on the processing

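Against 30 members that fell and 5 that rose, the counts were 22 and 14 with upper-quartile factors, 18 and 16 with library size alone, 13 and 19 with hepatocyte scaling, and 5 and 8 after background correction. Leaving out 1 library gave 22 to 36 that fell and 0 to 15 that rose, with the 15 without control 1, 3 without control 2, 0 without miR-206 replicate 1, and 1 without miR-206 replicate 2 or 3. Over all 24382 genes 7213 fell and 6289 rose with the counts as deposited. For the same genes 4812 fell and 10629 rose with upper-quartile factors, and 3774 and 11642 with library size alone. The shares with hepatocyte scaling were 4.50% and 54.4%, and after correction 21.0% and 18.4%. Leaving out 1 library gave 6202 to 8858 genes that fell and 1916 to 10674 that rose. The 10674 came without control 1, of 25524 tested. Of the partner genes 27 fell and 0 rose. Hepatocyte scaling gave 6 and 2, correction 6 and 1, and 1 rose with upper-quartile factors or library size alone. Leaving out 1 library gave 24 to 30 that fell and 0 to 1 that rose, the 1 without control 1. The corrected fit tests fewer genes; the cause of the other changes was not tested. RLE factors, leaving out mitochondrial genes, no filter and DESeq2 moved none of the 4 member and partner counts by over 1.5 times.

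Values turned positive with hepatocyte scaling for Cyp2b10 (0.27), Cyp2c29 (0.33), Cyp2c50 (0.58), Cyp2c70 (0.22), Cyp3a11 (0.79) and Ahr (0.88). They turned positive after correction for Cyp1a2 (0.44), Cyp2b10 (0.14), Cyp2c29 (0.94), Cyp2c50 (1.17), Cyp2c70 (0.79), Cyp2e1 (0.61), Cyp3a11 (1.40) and Cyp3a25 (0.20). No other alternative turned the sign of any of the 28 genes named by rule. With the replicate number as a replicate block 26 members fell and 9 rose, and 25 partner genes fell. Of all 24382 genes 6697 fell and 5362 rose in that fit. Of the genes named by rule Cyp2c29, Cyp2c50, Cyp2e1 and Ahr no longer passed (adjusted p = 0.0600 to 0.0687) and Cyp2b23 did (1.54, adjusted p = 0.0301). Deviations of same-numbered libraries correlated at -0.0064 to 0.023, so the numbers were not taken as pairs. Depth limits the members near the background: a count of 0 allows up to 3 counts, or 0.310 to 0.540 CPM per library.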
